A study of Gallus gallus with 23 samples.

Results

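The genes described here encode the proteins of the mitochondrial ribosome and of the machinery that brings proteins into mitochondria. They were taken as all genes on the array whose annotated symbol begins with MRPL, MRPS, TIMM or TOMM, which gave 47 of 6428 named genes, on 72 spots. Their transcripts were followed in livers from 23 Ross x Cobb broiler cockerels, which all carried an osmotic minipump under the skin from 29 days of age and were sampled after 6 days. The pumps released corticosterone at 600 micrograms per kg per day (CS, 6 birds), L-triiodothyronine at 192 micrograms per kg per day (T3, 6 birds), both hormones at these doses (CS+T3, 5 birds) or the vehicle of DMSO and propylene glycol alone (VC, 6 birds). Corticosterone is the main glucocorticoid of birds, and triiodothyronine is the active thyroid hormone. Each bird had its own 2-colour array, on which its liver RNA was set against a pool of liver RNA from 6 control birds, with no dye swap. The birds are named as biological replicates in the labels, which do not tie the arrays to pens, slides or dates.

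Mitochondria keep a small genome of their own, and the mitochondrial ribosome translates it into core subunits of the respiratory chain and of ATP synthase. All proteins of this ribosome are encoded in the nucleus, made in the cytosol and imported, like most other mitochondrial proteins, through the TOM complex of the outer membrane and the TIM complexes of the inner membrane. Liver is rich in mitochondria, and thyroid hormone is known to raise mitochondrial respiration in this tissue.

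The values are read here as log2 ratios of bird to pool, although their base is not stated. On this reading a difference of 1 between groups is a doubling. In 1 bird of each group (replicate 3 of CS, replicate 3 of T3, replicate 1 of CS+T3 and replicate 4 of VC) the deposited values sat early in block, row and column order over most spots, and for replicate 1 of T3 and replicate 2 of CS+T3 over part of them. Each array was correlated over spots, without block and row medians, with the mean of the other arrays that matched in place (r of at least 0.2). For the 4 arrays r lay between -0.0453 and 0.0157 in place and between 0.303 and 0.544 after the values had been moved. It went from 0.111 to 0.172 for T3 replicate 1 and from 0.440 to 0.476 for CS+T3 replicate 2. The 17 arrays left as deposited had 0.233 to 0.586 in place. All 6 arrays had a part of at least 1000 spots at a lag with r of at least 0.25, and were realigned. The calls among the genes described, and those printed for gene and marker lists set beside them, are given without these arrays as well. The titles name the bird before the pool, but the numerator of the ratios is not stated in the labels. A positive value is read here as higher in the bird, and 3 hormone target genes were looked at under this reading. THRSP, a gene that thyroid hormone raises in chicken liver, was 1.65 higher in CS+T3 than in CS birds (SE 0.32, adjusted p = 0.00827). Against VC, THRSP stood at 0.86 in T3 (SE 0.29, adjusted p = 0.96) and at 1.45 in CS+T3 (SE 0.30, adjusted p = 0.102). FKBP5, a gene that glucocorticoids raise, stood at 0.27 in CS against VC (SE 0.12, adjusted p = 0.221) and at 0.47 in CS+T3 against VC (SE 0.12, adjusted p = 0.341). TAT, a liver enzyme that glucocorticoids raise in mammals, stood at -0.37 in CS against VC (SE 0.14, adjusted p = 0.157), a sign opposite to that of FKBP5, and at 0.47 in CS+T3 against VC (SE 0.15, adjusted p = 0.662). It was 0.85 higher in CS+T3 than in CS (SE 0.15, adjusted p = 0.00524). The rises of THRSP and TAT in CS+T3 against CS passed without the 4 mostly misplaced arrays (adjusted p = 0.0252 and 0.0369) but not without all 6 (0.0524 and 0.0758) or as deposited (0.11 and 0.052). These genes do not settle the direction, and with the other reading all directions below turn round. Of 10 hepatocyte markers, 9 were measured on the arrays. Levels of different genes cannot be compared from such ratios.

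Of the 47 genes, 39 were tested, which took 3 or more values in each of the 4 groups: 14 MRPL, 15 MRPS, 5 TIMM and 5 TOMM genes. Among them, 7 had a value on all 23 arrays. MRPL24 and MRPL58 had no value on any array, MRPL33 and MRPS21 had a value on 1 array each, MRPL38 on 6, MRPS2 on 8, and MRPL12 and MRPL27 on 12 arrays each. The symbols do not always give the place of the protein. In mammals MRPS18A sits in the large subunit, MRPS36 belongs to the 2-oxoglutarate dehydrogenase complex, TIMMDC1 is an assembly factor of respiratory complex I and TOMM34 is a cytosolic cochaperone of preproteins. Below, the genes are grouped by symbol.

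**Figure D1:**
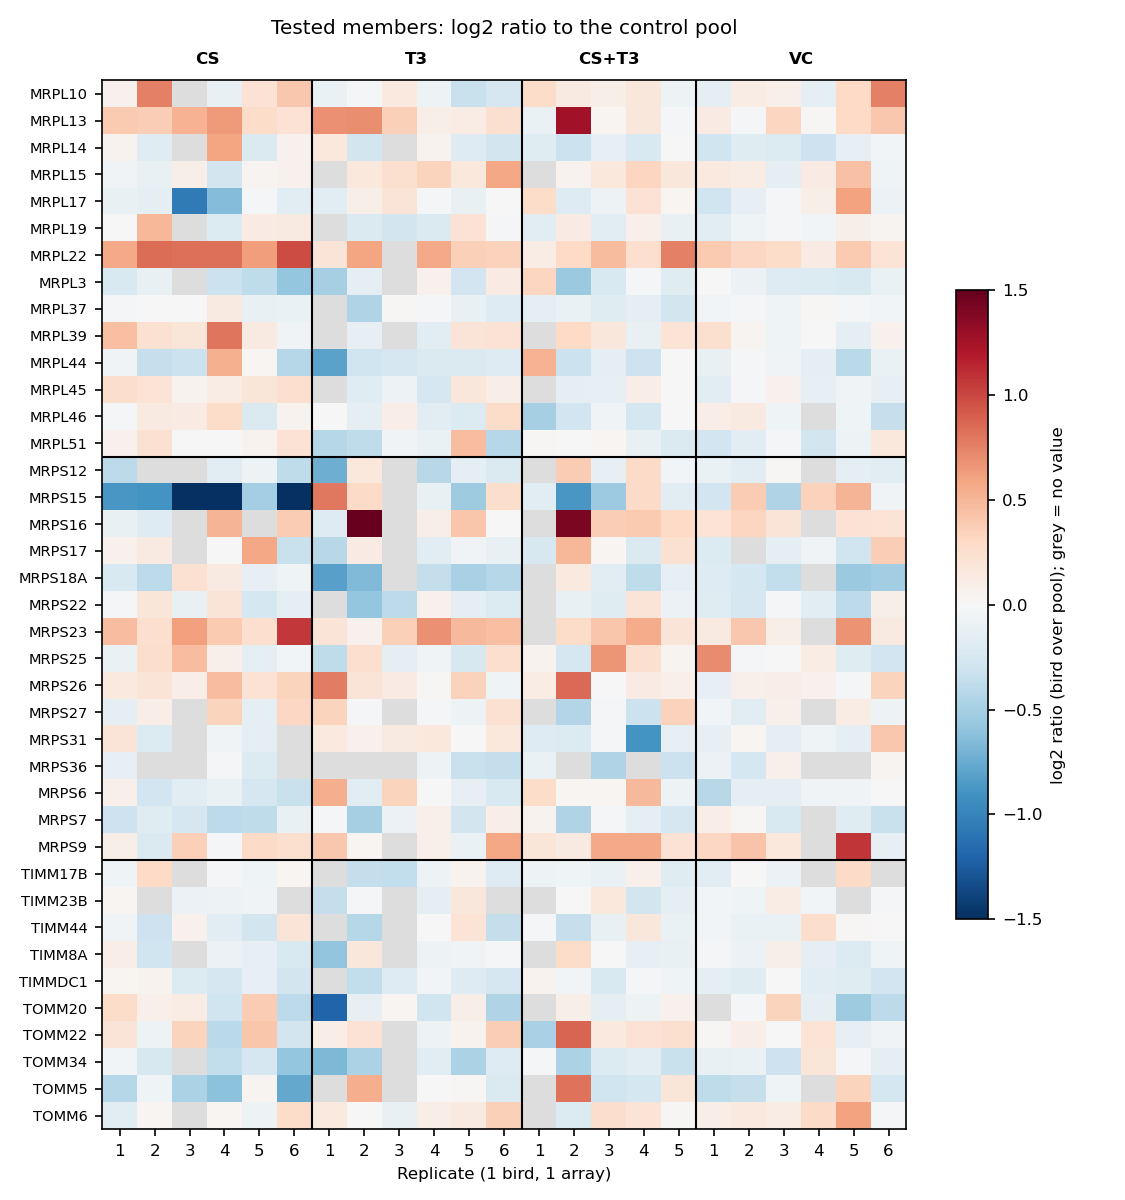
Heat map of the log2 ratio to the control pool (colour, from -1.5 to 1.5) for the 39 tested genes (rows: MRPL, MRPS, then TIMM and TOMM) in each bird (columns, by group and replicate), with grey for no value. MRPS15 is blue across the 6 CS columns, darkest in replicates 3, 4 and 6 and palest in replicate 5. MRPL22 is red across them, while no block of rows shifts as a whole in any group.

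The first comparison, CS against VC, concerns corticosterone given alone. MRPS15, a small subunit protein with a bacterial counterpart that binds the ribosomal RNA early in assembly, fell in CS livers, and MRPL22, a large subunit protein at the exit tunnel of the nascent chain, rose. These were the 2 of 39 genes past the test (limma, Benjamini-Hochberg adjustment over all 9244 features), against 4.04% of all features. By direction, 1 gene was higher, against 0.963% of all features, and 1 was lower, against 3.07%. The share of all features past the test ran from 2.34% without CS replicate 4 to 6.51% without CS replicate 5, and was 2.08% without the 4 mostly misplaced arrays, 2.76% without all 6 and 0.762% as deposited. At an unadjusted p under 0.05 there were 6 genes, against 19.6% of all features. The median log2 difference of the 39 genes was 0.028, beside 0.034 for all features, and 22 of them lay above 0, against 56.9%.

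MRPL22 had log2 ratios of 0.57, 0.82 and 0.98 (lowest, median and highest) in the 6 CS birds and of 0.13, 0.30 and 0.40 in the 6 VC birds. All 6 CS birds lay above all 6 VC birds. The means were 0.78 ± 0.15 in CS and 0.28 ± 0.11 in VC (SD, n = 6 each), a difference of 0.49 (SE 0.10, adjusted p = 0.00778). MRPL22 stayed past the test without the 4 mostly misplaced arrays (0.45, adjusted p = 0.0402) and without all 6 (0.45, adjusted p = 0.0311), but not with the values as deposited (0.31, adjusted p = 0.282), after quantile normalization (0.37, adjusted p = 0.153) or with equal spread of the arrays (0.30, adjusted p = 0.183).

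MRPS15 had log2 ratios of -1.61, -1.22 and -0.51 (lowest, median and highest) in the 6 CS birds and of -0.45, 0.14 and 0.51 in the 6 VC birds. Again the groups did not overlap, and the CS birds fell into values between -1.61 and -1.53 (replicates 3, 4 and 6) and values between -0.90 and -0.51 (replicates 1, 2 and 5). The means were -1.17 ± 0.46 in CS and 0.07 ± 0.39 in VC (SD, n = 6 each), a difference of -1.24 (SE 0.24, adjusted p = 0.0044), or 0.424 times the VC level. It passed without the 4 mostly misplaced arrays (-1.11, adjusted p = 0.0389) and without all 6 (-1.11, adjusted p = 0.0223), and with the values as deposited it stood at -0.87 (adjusted p = 0.14). Groups without overlap were seen for these 2 of the 39 genes, against 4.45% of all features.

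Of the 14 MRPL genes, 11 had a log2 difference above 0, with a median of 0.12. MRPL45, which resembles the import motor protein TIMM44 and holds the ribosome near the inner membrane, stood at 0.25 (SE 0.08, adjusted p = 0.0915). It passed with array weights (0.25, adjusted p = 0.0415) but under none of the other 35 alternative settings. MRPL17, a conserved large subunit protein, stood at -0.38 (SE 0.16, adjusted p = 0.179, single spots -0.55 and -0.22). Among the 15 MRPS genes, 7 were above 0, with a median of -0.04, and MRPS18A stood at 0.31 (SE 0.12, adjusted p = 0.171). Of the 10 import genes 4 were above 0, with a median of -0.04. None passed the test, and their differences lay between -0.24 and 0.17. They include the import receptors TOMM20 and TOMM22, the small TOM subunits TOMM5 and TOMM6, the TIM channel protein TIMM17B, the motor anchor TIMM44 and the intermembrane space chaperone TIMM8A. The 95% interval of the difference lay within 0.5 of 0 on the log2 scale for 26 of the 39 genes and within 1 for 38 of them, MRPS15 being the exception.

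Livers of CS birds also differed in markers of their cell types. Hepatocyte markers fell in 5 of 9 cases, against 3.07% of all features, with a median of -1.06 and a range of -1.78 to 0.28. Their mean log2 ratio per bird ran from -1.25 to -0.40 in CS and from -0.08 to 0.15 in VC. The markers did not move as one. Of the fibrinogen chains, FGG had means of 0.61 in CS and 0.33 in VC, FGA of -1.40 and -0.07, and FGB of -1.42 and 0.35. Leukocyte markers fell in 2 of 6 cases with means per bird from -0.47 to -0.04 in CS and from -0.11 to 0.11 in VC. Of the erythrocyte markers 1 of 4 rose, against 0.963% of all features. Their means per bird ran from 0.002 to 0.41 in CS and from -0.03 to 0.15 in VC. Without the 4 mostly misplaced arrays 5 of the 5 hepatocyte, 1 of the 2 leukocyte and 0 of the 1 erythrocyte calls passed, and without all 6 the counts were the same. None of 6 stellate and matrix, 4 endothelial and 3 bile duct markers passed. The part of these shifts in the differences of MRPS15 and MRPL22 was not tested. In whole liver, fewer cells of a type and less RNA per cell cannot be told apart.

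**Figure D2:**
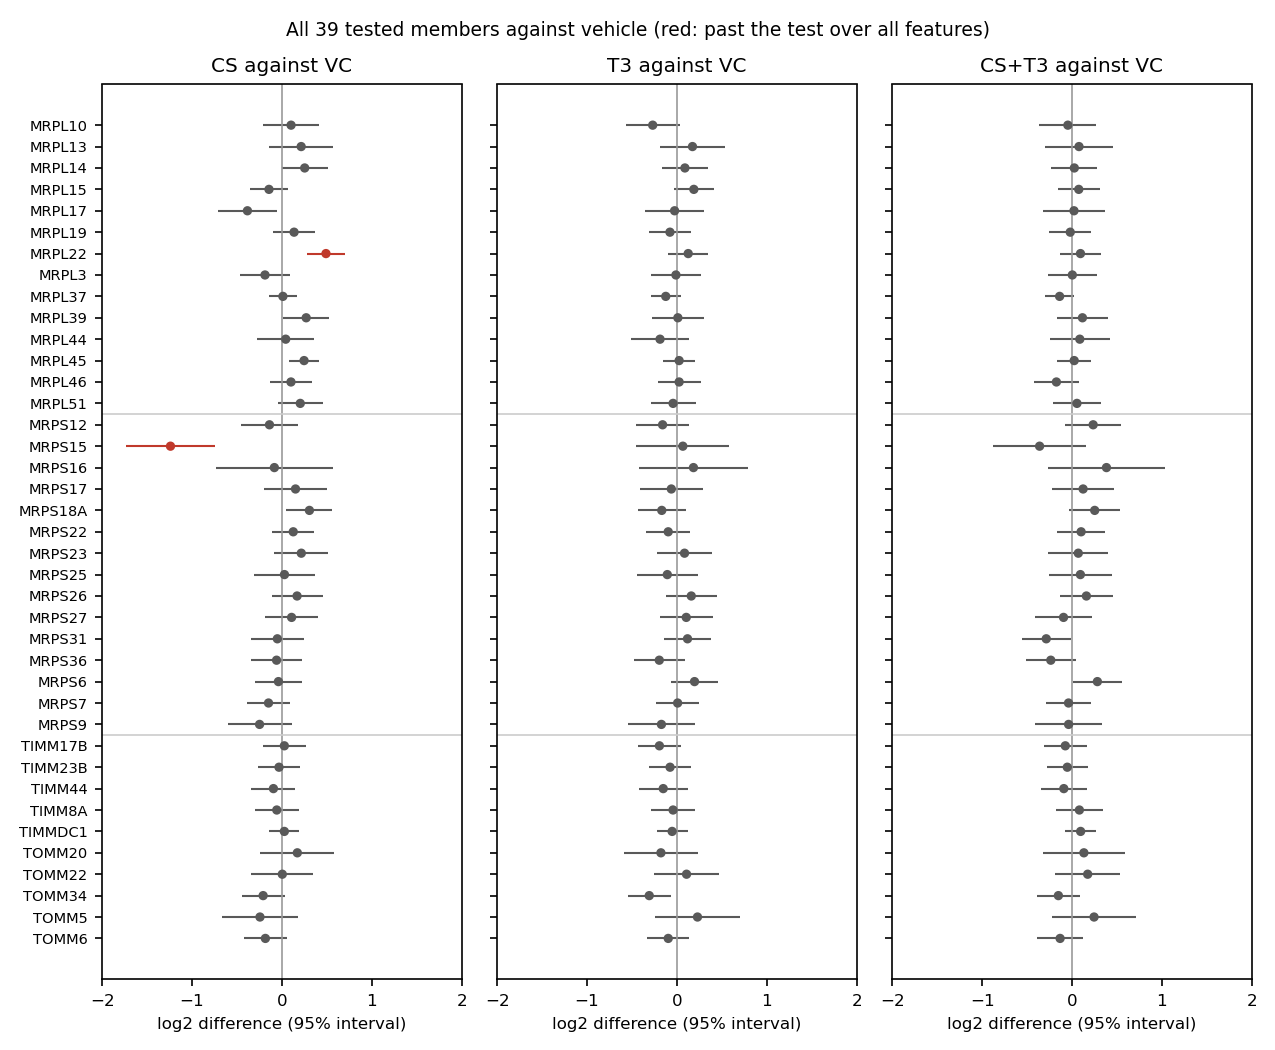
Log2 difference (point) and its 95% interval (line) for each of the 39 genes (rows, in the order of the heat map) between CS, T3 and CS+T3 birds and VC birds, with genes past the test in red. Only MRPL22 and MRPS15 in CS against VC are red, and their intervals lie clear of 0.

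Thyroid hormone given alone is covered by T3 against VC. None of the 39 genes passed the test, and 0% of all features did (limma). At an unadjusted p under 0.05 it was 1 gene, against 4.69% of all features. This was TOMM34 (-0.31, SE 0.12, adjusted p = 0.96), with log2 ratios of -0.67, -0.47, -0.17, -0.48 and -0.19 in the 5 T3 birds with a value and of -0.31, -0.11 and 0.18 (lowest, median and highest) in the 6 VC birds, so that the groups overlapped. None of the 39 genes lacked overlap between T3 and VC, against 1.05% of all features.

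The 4 genes with the next smallest p in T3 against VC came from every class. MRPL10, of the ribosomal stalk, stood at -0.27 (SE 0.15, single spots -0.49 and -0.13), MRPL15 at 0.19 (SE 0.11), TIMM17B at -0.19 (SE 0.12) and MRPS6 at 0.20 (SE 0.12). Of TIMM17B and MRPS6 only 1 spot each could be tested alone, at -0.11 and 0.21. The median difference was -0.043, beside -0.008 for all features, with 17 genes above 0, against 47.8%. For the 5 TIMM genes all differences were below 0 (-0.19 to -0.04). T3 replicate 1, an array with a misplaced part, held the lowest T3 value of TIMM8A (-0.60) and of TIMM23B (-0.36). The other T3 birds with a value ran from -0.08 to 0.18 and from -0.14 to 0.17, so the shared sign rests in part on this array. The VC birds ran from -0.21 to 0.08 and from -0.06 to 0.11. The 95% interval lay within 0.5 of 0 for 30 of the 39 genes and within 1 for all 39. MRPS15 had 0.79, 0.29, -0.11, -0.54 and 0.26 in the 5 T3 birds with a value, and differed from VC by 0.07 (SE 0.25, 95% interval -0.45 to 0.59). MRPL22 had 0.20, 0.59, 0.57, 0.36 and 0.35 in the 5 T3 birds with a value and differed by 0.13 (SE 0.11, 95% interval -0.10 to 0.35).

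For the hormones given jointly, CS+T3 was set against VC. Again 0 of 39 genes passed the test, against 0.0541% of all features, with 2 at an unadjusted p under 0.05 (4.42% of all features). MRPS31, a small subunit protein found only in mitochondrial ribosomes, stood at -0.29 (SE 0.13) and MRPS6, with a bacterial counterpart, at 0.28 (SE 0.13). MRPS18A stood at 0.25 (SE 0.14), MRPS36 at -0.24 (SE 0.13) and MRPL37 at -0.14 (SE 0.08), and all 5 genes had an adjusted p of 0.999. MRPL37 was the 1 gene without overlap between the groups (1.99% of all features), at -0.27 to -0.10 in the 5 CS+T3 birds and -0.06 to 0.02 in the 6 VC birds.

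MRPS15 had -0.15, -0.87, -0.55, 0.29 and -0.16 in the 5 CS+T3 birds, and its mean of -0.29 ± 0.44 differed from VC by -0.36 (SE 0.25, 95% interval -0.88 to 0.16). Replicates 2 and 3 lay below all VC birds, and the others within their range. MRPL22 had 0.11, 0.30, 0.47, 0.26 and 0.76 in the 5 CS+T3 birds, a mean of 0.38 ± 0.25 that differed from VC by 0.09 (SE 0.11, 95% interval -0.13 to 0.32). The median over the 39 genes was 0.056, beside -0.010 for all features, with 24 genes above 0 (46.8% of all features). The comparisons with VC share the 6 VC birds, so their differences are not independent of each other.

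**Figure D3:**
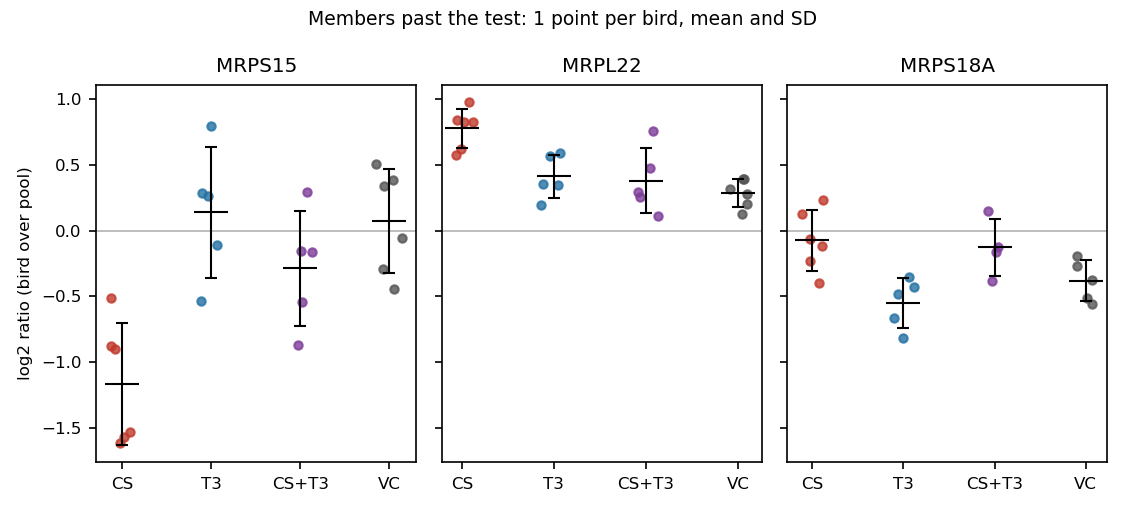
Log2 ratio to the control pool in each bird (points) for the 3 genes past the test in any comparison, with group mean and SD (black), in CS, T3, CS+T3 and VC birds. For MRPS15 the 6 CS birds lie at or below -0.51, for MRPL22 they lie at or above 0.57, and for MRPS18A the 5 T3 birds lie at or below -0.35.

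Livers under either hormone were compared directly in CS against T3. MRPS15 was lower in CS, and MRPS18A and MRPL22 were higher, so that 3 of 39 genes passed, against 7.66% of all features. By direction, 2 were higher, against 2.56%, and 1 was lower, against 5.1%. The share of all features past the test ran from 4.59% without CS replicate 4 to 12.3% without T3 replicate 5, and was 3.7% without the 4 mostly misplaced arrays, 3.09% without all 6 and 2.47% as deposited. At an unadjusted p under 0.05 there were 8 genes, against 25% of all features, and 26 of 39 lay above 0, against 58.7%. For MRPS15 the difference was -1.31 (SE 0.25, adjusted p = 0.00311), with means of -1.17 ± 0.46 in CS (n = 6) and 0.14 ± 0.50 in T3 (n = 5). The groups overlapped only through CS replicate 5 (-0.51) and T3 replicate 5 (-0.54). MRPS15 passed without the 4 mostly misplaced arrays (-1.23, adjusted p = 0.0172) and without all 6 (-1.07, adjusted p = 0.0345), but not with the values as deposited (-0.97, adjusted p = 0.0597) or after quantile normalization (-0.79, adjusted p = 0.0695).

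MRPS18A had log2 ratios of -0.40, -0.09 and 0.23 (lowest, median and highest) in the 6 CS birds and of -0.82, -0.67, -0.35, -0.48 and -0.43 in the 5 T3 birds with a value. CS replicate 2, at -0.40, lay within the T3 range, and the other CS birds above it. The difference was 0.48 (SE 0.12, adjusted p = 0.0225), and the CS+T3 birds stood at -0.13 ± 0.22 (n = 4) and the VC birds at -0.38 ± 0.16 (n = 5). The call was lost without the 4 mostly misplaced arrays (0.41, adjusted p = 0.0674) and without all 6 (0.35, adjusted p = 0.106). It was also lost without T3 replicate 1 (adjusted p = 0.0518), T3 replicate 2 (adjusted p = 0.0581) or CS replicate 4 (adjusted p = 0.0569), with array weights (0.38, adjusted p = 0.0616), with only the compared groups in the fit (0.48, adjusted p = 0.077) and with the replicate block (0.46, adjusted p = 0.0856).

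MRPL22 differed by 0.37 between CS and T3 (SE 0.11, adjusted p = 0.0412), with T3 birds at 0.41 ± 0.16 (n = 5). The groups overlapped through CS replicate 1 (0.57) and T3 replicate 2 (0.59). This call was lost without the 4 mostly misplaced arrays (0.36, adjusted p = 0.0797) and without all 6 (0.30, adjusted p = 0.139). It was also lost when any 1 of VC replicate 2 (adjusted p = 0.052), CS replicate 2 (0.0669), CS replicate 3 (0.0682), CS replicate 4 (0.0794), CS replicate 6 (0.092), T3 replicate 1 (0.0876), T3 replicate 5 (0.0548) or T3 replicate 6 (0.0912) was left out. Nor did it pass as deposited (0.28, adjusted p = 0.254), after quantile normalization (0.30, adjusted p = 0.265), with equal spread of the arrays (0.24, adjusted p = 0.307) or with each array centred on its median (0.33, adjusted p = 0.0628). Array weights gave 0.27 (adjusted p = 0.196), only the compared groups 0.37 (adjusted p = 0.0988) and the replicate block 0.36 (adjusted p = 0.0717). The count of 3 was 1 without T3 replicate 1 and without CS replicate 4, and 5 without T3 replicate 5. It was also 1 without the 4 mostly misplaced arrays and 1 without all 6, each time MRPS15.

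MRPL15, a conserved large subunit protein, stood at -0.33 (SE 0.11, adjusted p = 0.0572) and was the 1 gene without overlap between CS and T3 (4.77% of all features): it ran from -0.27 to 0.09 in the 6 CS birds and from 0.15 to 0.58 in the 5 T3 birds with a value. It passed without VC replicate 5 (adjusted p = 0.0384), T3 replicate 5 (adjusted p = 0.0406) or CS replicate 5 (adjusted p = 0.0489). It also passed with each array centred on its median (-0.37, adjusted p = 0.0366) and with array weights (-0.35, adjusted p = 0.0447). In the other 31 of 36 alternatives MRPL15 did not pass (adjusted p up to 0.217). MRPL45 stood at 0.22 (SE 0.08, adjusted p = 0.106), and at 0.28 without T3 replicate 5 (adjusted p = 0.0424), the 1 of 36 alternatives in which it passed. None of the 10 import genes passed, and their differences ran from -0.47 to 0.35 with a median of 0.05. Beside these values, hepatocyte markers were lower in CS than in T3 in 6 of 9 cases and higher in 1 (FGG, 0.64). Of all features 5.1% passed as lower and 2.56% as higher. Leukocyte markers were lower in 3 of 6. Of 4 erythrocyte markers 1 was higher, SLC4A1, the anion exchanger of red cells (0.34, adjusted p = 0.0496). The 4 ran from -0.28 to 0.34 with a median of 0.04. The haemoglobin gene HBA1 went the other way, with means of 0.41 in CS and 0.69 in T3. Of these calls 6 of 7 hepatocyte, 2 of 3 leukocyte and 0 of 1 erythrocyte passed without the 4 mostly misplaced arrays, and 6, 1 and 0 without all 6. The part of these shifts was not tested.

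CS+T3 against CS asks what thyroid hormone changed in birds that also received corticosterone. None of 39 genes passed (limma), against 2.55% of all features. That share ran from 1.02% without CS replicate 4 to 7.3% without CS replicate 5, and was 0.704% without the 4 mostly misplaced arrays, 0.302% without all 6 and 0.0529% as deposited. Of the 39 genes, 8 had an unadjusted p under 0.05, against 21.1%. The smallest p belonged to MRPL22 (-0.40, SE 0.11, adjusted p = 0.0522) and MRPS15 (0.88, SE 0.25, adjusted p = 0.0597), whose signs are opposite to those in CS against VC. Both comparisons hold the same CS birds. MRPS6 stood at 0.32 (SE 0.13), MRPL17 at 0.41 (SE 0.17, single spots -0.02 and 0.95) and MRPL45 at -0.22 (SE 0.09). Of the 14 MRPL genes, 10 had a difference below 0, with a median of -0.15, beside -0.04 for all features. Over all 39 genes the median was -0.020, with 18 genes above 0, against 43%. No gene lacked overlap between CS+T3 and CS, against 5.26% of all features.

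The values of MRPL22 and MRPS15 in CS+T3 against CS lay close to the threshold in the main fit. Of 36 alternatives, MRPL22 did not pass in 29 (adjusted p up to 0.472) and MRPS15 in 30 (up to 0.318). Among these were the fits without the 4 mostly misplaced arrays and without all 6. MRPL22 passed without CS replicate 1 (adjusted p = 0.0409), T3 replicate 1 (0.0387), T3 replicate 2 (0.0496), CS+T3 replicate 5 (0.0221) or CS replicate 5 (0.0276), and MRPS15 without CS+T3 replicate 2 (0.0337), T3 replicate 1 (0.0414), T3 replicate 5 (0.0435) or CS replicate 5 (0.0188). The count of genes past the test was accordingly 1 or 2 in these fits. With every array kept, MRPS15 passed with arrays centred on their medians (adjusted p = 0.0472) and with array weights (0.0300). MRPL22 then passed with at least 4 values per group (adjusted p = 0.0498) and with each spot on its own (0.0486). Hepatocyte markers rose in CS+T3 against CS in 2 of 9 cases, with a median of 0.73 and means per bird from -0.37 to -0.06 in CS+T3. Of the 9244 features tested, 236 passed in this comparison, 204 of them higher in CS+T3. Of 6 leukocyte markers 1 rose, BTK, a kinase of B lymphocytes (0.72, adjusted p = 0.0103), and of 4 erythrocyte markers 1 fell, SLC4A1 (-0.40, adjusted p = 0.0323). Without the 4 mostly misplaced arrays, and without all 6, BTK passed and neither the hepatocyte markers nor SLC4A1 did. The part of these markers was not tested.

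CS+T3 against T3 asks what corticosterone changed in birds that also received thyroid hormone. No gene passed (0.0433% of all features), and 3 had an unadjusted p under 0.05 (4.25%). Above 0 were 26 of 39 genes, against 51.2%. MRPS18A stood at 0.42 (SE 0.14), MRPS31 at -0.40 (SE 0.13) and MRPS12, the counterpart of a bacterial protein of the decoding centre, at 0.40 (SE 0.15). MRPL46 stood at -0.20 (SE 0.11) and TIMMDC1 at 0.15 (SE 0.09), and the smallest adjusted p was 0.779. MRPS31 ran from -0.90 to -0.03 in the 5 CS+T3 birds and from 0.0003 to 0.16 in the 6 T3 birds, the 1 gene without overlap (1.4% of all features).

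The difference between the corticosterone effect with and without thyroid hormone was tested as an interaction. No gene passed (0.0865% of all features), and 4 had an unadjusted p under 0.05 (9.62%). These were MRPL22 (-0.52, SE 0.15, adjusted p = 0.269), MRPS12 (0.53, SE 0.21, adjusted p = 0.447), MRPS15 (0.81, SE 0.35, adjusted p = 0.466) and TOMM34 (0.37, SE 0.17, adjusted p = 0.491), followed by MRPL45 (-0.25, SE 0.12, adjusted p = 0.535). The effects of corticosterone on MRPS15 and MRPL22 were therefore not shown to differ between birds with and without T3. Over all 39 genes, 26 lay above 0, against 46.1% of all features, and so did all 10 import genes (0.06 to 0.37, median 0.14). Low T3 values raise this difference, and T3 replicate 1, an array with a misplaced part, held the lowest T3 value of TOMM20 (-1.20), TIMM8A (-0.60) and TIMM23B (-0.36). The other T3 birds had TOMM20 from -0.45 to 0.09, so the shared sign rests in part on this array. The 2 spots of TOMM22 stood at -0.09 and 0.27. The interaction is the least precise of the tests: its 95% interval lay within 0.5 of 0 for 12 of the 39 genes.

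The genes were also summarised in each bird. The median log2 ratio over the measured ribosome genes was 0.04 ± 0.06 in CS, -0.01 ± 0.07 in T3, 0.02 ± 0.05 in CS+T3 and -0.05 ± 0.03 in VC (SD, n = 6, 6, 5 and 6). Over the import genes it was -0.10 ± 0.11 in CS, -0.15 ± 0.18 in T3, -0.06 ± 0.04 in CS+T3 and -0.02 ± 0.05 in VC. The groups overlapped in both measures, but over the ribosome genes CS and VC did so only through CS replicate 5 (-0.05). The CS birds ran from -0.05 to 0.10 there and the VC birds from -0.10 to -0.02, a difference that was not tested. The lowest import value, -0.48, belonged to T3 replicate 1, an array with a misplaced part. The same median over all features ran from -0.06 to 0.04.

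**Figure D4:**
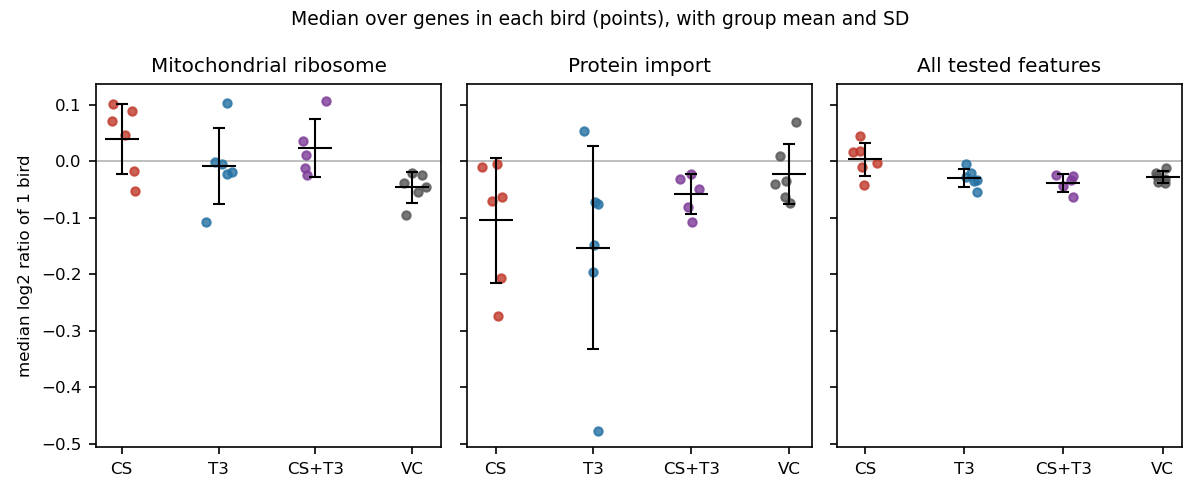
Median log2 ratio to the control pool in each bird (points) over the ribosome genes, the import genes and all tested features, with group mean and SD (black). Group means of the ribosome genes run from -0.05 in VC to 0.04 in CS. In this measure the CS birds lie between -0.05 and 0.10 and the VC birds between -0.10 and -0.02, overlapping only through CS replicate 5.

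From bird to bird the genes showed a median correlation near 0. After group means had been removed, the median Pearson correlation over 666 pairs of the 37 genes with values on at least 18 arrays was -0.031, and that over the pairs of 4524 named genes was -0.003. Pairs with r above 0.5 made up 5.11% of the pairs here and 5.31% of all pairs, and ribosome genes paired with import genes had a median r of -0.063. These correlations share arrays and are given as a description. Of 7 genes with at least 2 tested spots, the spots disagreed in sign in 18 of 49 gene and comparison pairs. The 3 spots of MRPS26, for example, ran from -0.20 to 0.67 in CS against VC. MRPS15 and MRPL22 were each on 1 spot, and MRPS18A had 2 spots with values of which 1 could be tested alone (0.48 in CS against T3). In the RefSeq gene order of the GRCg7b assembly, MRPL14 and MRPS18A lie close together, with 2 protein-coding genes between them. They stood at 0.25 and 0.31 in CS against VC at 0.03 and 0.25 in CS+T3 against VC and, with opposite signs, at 0.09 and -0.17 in T3 against VC.

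Genes that work beside the ribosome and the import channels were described from 8 lists: ribosomal proteins under other symbols, translation factors, tRNA synthetases, ribosome assembly factors, import partners with processing peptidases and chaperones, proteases with prohibitins, factors of mitochondrial genome expression and regulators of mitochondrial biogenesis. Of their 128 genes, 53 were tested. In CS against T3 1 of the 53 passed, against 7.66% of all features. This was PTCD3, an RNA-binding protein of the small subunit, which was higher in CS (0.86, SE 0.23, adjusted p = 0.0257). None passed in the other 6 comparisons, where the share of all features ran from 0% to 4.04%. PTCD3 passed without the 4 mostly misplaced arrays (0.94, adjusted p = 0.0466) and without all 6 (0.94, adjusted p = 0.0469), but not as deposited (0.68, adjusted p = 0.0972). PTCD3 stood at 0.79 ± 0.55 in CS (n = 6), -0.07 ± 0.25 in T3 (n = 5), -0.03 ± 0.36 in CS+T3 (n = 4) and 0.19 ± 0.37 in VC (n = 6). Between CS and VC it differed by 0.59 (SE 0.22, adjusted p = 0.139) and between CS+T3 and CS by -0.81 (SE 0.24, adjusted p = 0.0735).

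In CS against VC the genes with the smallest p of the other 7 lists did not pass. MRM1, a methyltransferase of mitochondrial ribosomal RNA, stood at 0.34 (SE 0.11, adjusted p = 0.0776), PHB, a prohibitin of the inner membrane, at 0.42 (SE 0.14, adjusted p = 0.0875) and MTFMT, which formylates the initiator tRNA, at 0.29 (SE 0.13). MIPEP, a processing peptidase, stood at -0.30 (SE 0.10), TRMT10C, a subunit of mitochondrial RNase P, at -0.66 (SE 0.26), the methionyl-tRNA synthetase MARS2 at 0.20 (SE 0.10) and the deacetylase SIRT3 at 0.12 (SE 0.10). In CS against T3 GRPEL1, the nucleotide exchange factor of the import motor, stood at 0.61 (SE 0.20, adjusted p = 0.0603), PHB at 0.38 (SE 0.14), MRM1 at 0.31 (SE 0.11), the isoleucyl-tRNA synthetase IARS2 at 0.41 (SE 0.20), the release factor MTRF1L at 0.22 (SE 0.10), TRMT10C at -0.33 (SE 0.26) and PPARGC1A, a coactivator of mitochondrial biogenesis, at 0.38 (SE 0.17).

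Between CS+T3 and CS, SPG7, a subunit of an inner membrane protease, stood at 1.16 (SE 0.35, adjusted p = 0.0743), HSD17B10, another subunit of mitochondrial RNase P, at 0.34 (SE 0.12), MTFMT at -0.34 (SE 0.13), MRM1 at -0.28 (SE 0.11), HSPA9, the chaperone of the import motor, at 0.22 (SE 0.09), MARS2 at -0.19 (SE 0.11) and PPARGC1A at -0.34 (SE 0.16). In T3 against VC CHCHD1, a small subunit protein, stood at 0.42 (SE 0.22), MIPEP at -0.25 (SE 0.10), SLIRP at 0.24 (SE 0.19), the cysteinyl-tRNA synthetase CARS2 at -0.22 (SE 0.16), PPARGC1A at -0.22 (SE 0.17), STOML2 at -0.18 (SE 0.10), the elongation factor GFM1 at 0.16 (SE 0.11) and MTERF3 at 0.13 (SE 0.11). The adjusted p of all 8 was 0.96.

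Between CS+T3 and VC, MIPEP stood at -0.33 (SE 0.10), HSD17B10 at 0.32 (SE 0.12), GFM1 at 0.27 (SE 0.12), MALSU1, an assembly factor of the large subunit, at 0.27 (SE 0.13), FASTKD2 at 0.19 (SE 0.12), PPARGC1A at -0.18 (SE 0.16), IARS2 at 0.17 (SE 0.20) and STOML2 at -0.16 (SE 0.11). Between CS+T3 and T3, CHCHD1 stood at -0.41 (SE 0.23), MTRF1L at 0.26 (SE 0.10), IARS2 at 0.24 (SE 0.20), HSD17B10 at 0.21 (SE 0.12), the chaperonin HSPD1 at -0.18 (SE 0.11), MTERF3 at -0.14 (SE 0.12), the protease OMA1 at 0.12 (SE 0.13) and SIRT3 at 0.08 (SE 0.10). In the interaction TRMT10C stood at 0.76 (SE 0.39), CHCHD1 at -0.76 (SE 0.31), PHB at -0.47 (SE 0.20), MTERF3 at -0.39 (SE 0.16), MTFMT at -0.38 (SE 0.18), HSPA9 at 0.25 (SE 0.13), NARS2 at -0.20 (SE 0.15) and the thyroid hormone receptor THRA at -0.16 (SE 0.19).

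The products of the mitochondrial ribosome join nuclear-encoded subunits of oxidative phosphorylation, and cytosolic ribosomes make the proteins of the mitochondrial ribosome. Genes for these subunits and for cytosolic ribosomes were therefore set beside those described. Of the 46 cytosolic ribosomal protein genes 42 were tested, and in CS against VC 3 of them fell: RPL11 by 0.82 (SE 0.22), RPS12 by 0.55 (SE 0.15) and RPS24 by 0.54 (SE 0.13). In either direction, 4.04% of all features passed in CS against VC, 7.66% in CS against T3 and 2.55% in CS+T3 against CS. Those lower were 3.07% in CS against VC and 5.1% in CS against T3, and 204 of 9244 features were higher in CS+T3 against CS. In CS against T3 5 fell, RPL11 (-1.03, SE 0.23), RPLP2 (-0.76, SE 0.23), RPL35A (-0.66, SE 0.18), RPS12 (-0.57, SE 0.15) and RPL8 (-0.46, SE 0.14), and in CS+T3 against CS RPL35A rose (0.72, SE 0.18). Of the 9 calls, few passed without the misplaced arrays: RPS24 alone passed without the 4 and without all 6 in CS against VC, RPL11 alone without the 4 and RPL35A alone without all 6 in CS against T3, and none either way in CS+T3 against CS. The median of these genes was -0.15 in CS against VC, -0.22 in CS against T3 and 0.22 in CS+T3 against CS, beside 0.03, 0.08 and -0.02 for the genes of the mitochondrial ribosome and import. These comparisons hold the same CS birds, as do those of oxidative phosphorylation with calls below. In comparisons without the CS group the median of the cytosolic genes was 0.08 (T3 against VC), 0.04 (CS+T3 against VC) and -0.0009 (CS+T3 against T3).

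Of 44 genes for subunits of oxidative phosphorylation 35 were tested. Beside the counts below, 4.04% of all features passed in either direction in CS against VC and 7.66% in CS against T3. The share was 2.55% in CS+T3 against CS and 0.0541% in CS+T3 against VC. Higher and lower were 0.963% and 3.07% in CS against VC and 2.56% and 5.1% in CS against T3. In CS+T3 against CS 204 of 9244 features were higher. In CS against VC COX7C of cytochrome c oxidase rose by 1.28 (SE 0.27) and ATP5H of ATP synthase fell by 0.60 (SE 0.15), and the median was -0.04. In CS against T3 6 fell, namely ATP5H (-0.79, SE 0.15), UQCRHL of complex III (-0.76, SE 0.23) and the ATP synthase genes ATP5C1 (-0.61, SE 0.17), ATP5B (-0.58, SE 0.13), ATP5G1 (-0.51, SE 0.13) and ATP5F1AZ (-0.48, SE 0.14), while COX7C rose by 1.13 (SE 0.29). In CS+T3 against CS 6 of 35 rose: UQCRHL (1.17, SE 0.23), ATP5H (0.84, SE 0.16), ATP5F1AZ (0.70, SE 0.14), UQCRQ (0.66, SE 0.15), ATP5B (0.59, SE 0.14) and NDUFB6 of complex I (0.50, SE 0.10). Without the 4 mostly misplaced arrays ATP5H and COX7C passed in CS against T3, COX7C in CS against VC, and ATP5H, UQCRHL and UQCRQ in CS+T3 against CS. Without all 6, ATP5H passed in CS against T3, where ATP5C1 was not tested, ATP5H and COX7C in CS against VC, and UQCRQ in CS+T3 against CS. The median of the list in CS against VC was 0.02 without the 4 arrays and without all 6. In CS+T3 against CS the median of the list was 0.21, and it was 0.19 in CS+T3 against VC, where none passed. The same comparisons gave medians of -0.02 and 0.056 for the genes of the mitochondrial ribosome and import, and the difference between the lists was not tested.

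**Figure D5:**
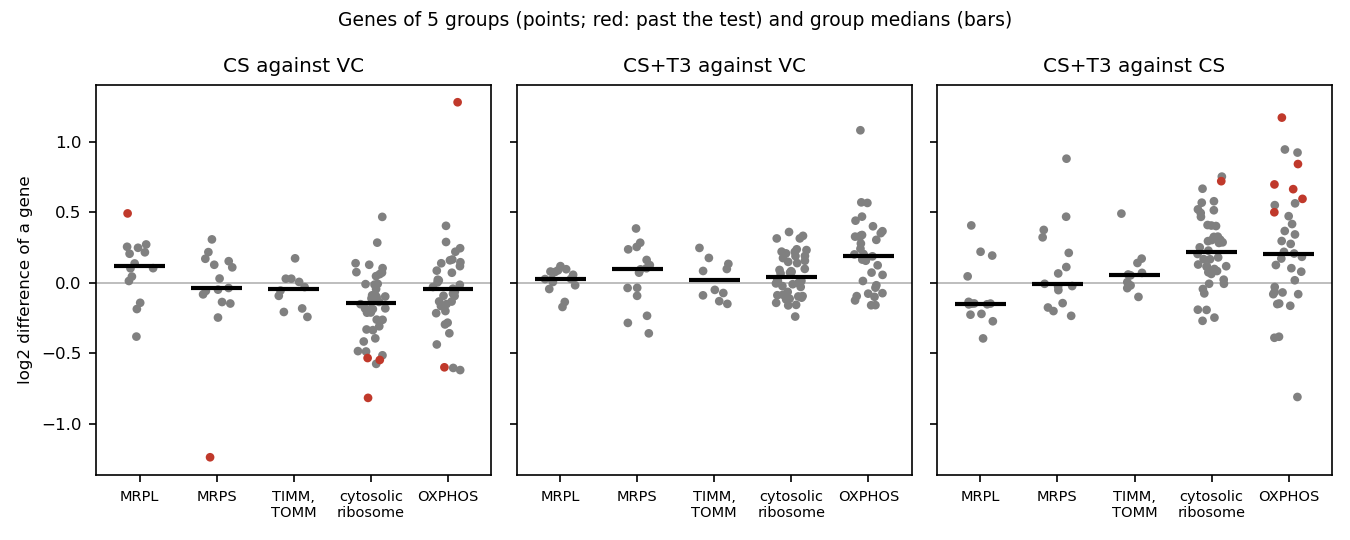
Log2 difference of each tested gene (points, red where past the test) in CS against VC, CS+T3 against VC and CS+T3 against CS, for the MRPL genes, the MRPS genes, the TIMM and TOMM genes, cytosolic ribosomal proteins and subunits of oxidative phosphorylation (OXPHOS), with the median of each group (bar). In CS+T3 against CS the bars of the cytosolic ribosome (0.22) and OXPHOS (0.21) lie above 0 and that of the MRPL genes below it (-0.15). Those of the MRPS genes (-0.01) and of the TIMM and TOMM genes (0.05) lie near 0.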

How the data were processed

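Expression was read from a table of 23 arrays (19200 spots in 48 blocks). Its log2 unit was inferred here, since the authors deposited ratios of -3.86 to 4.05 without naming a base. Background correction, normalization, numerator, spot filter, genome build and processing software are not given in the sources used here. Per the labels' protocols, bird and pool RNA carried different Alexa Fluor dyes. Arrays held values at 8925 to 13721 spots, with medians from -0.05 to 0.03. The SD of an array's deposited values ran from 0.319 to 0.500 in CS and from 0.177 to 0.363 in VC. It ran from 0.235 to 0.560 in T3 and from 0.259 to 0.513 in CS+T3. The main fit did not equalise these spreads. Precision is limited by how few arrays each group has: a feature's residual SD had a median of 0.221.

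A search for nondecreasing lags of up to 40 spots, which used no group, found 6 arrays with misplaced parts. They were realigned, and 6348 to 10816 values were kept on each. Values were set to missing in parts that matched poorly (r under 0.1), around a change of lag (the whole block) and wherever the deposited spot was empty. On the 4 mostly misplaced arrays, blanks lay where the other arrays had them (r of 0.792 to 0.838) rather than at the lag (0.0528 to 0.205). The first part of T3 replicate 1 matched the other arrays only weakly (r = 0.145). On VC replicate 1, 463 spots at the end may also lie at a lag and were left in place, 4 of them of the genes described.

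The platform annotation gave 1 symbol to 10601 spots, several to 0 and none to 8599. Of the named spots, 10455 matched RefSeq through their Entrez ID. Spots of a gene were averaged. Features with at least 3 values per group (4834 named genes and 4410 unnamed spots) entered 1 fit in limma (version 3.58.1, R 4.3.3) with group means over 23 arrays, empirical Bayes and Benjamini-Hochberg adjustment over all features at 0.05, for 7 comparisons. The test was checked on simulated data. The members, lists and tests were chosen with earlier results of these data known.

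Genes past the test in any comparison are given by bird, and in each comparison the 5 genes with the smallest p are named. From the other lists, each gene past the test and the gene with the smallest p of each mitochondrial list are named. Same-numbered replicates did not deviate together (median r of -0.0235 over 33 pairs, against 0.0102 for other pairs), so no pairing was used. Alternatives covered the realignment, array normalization and weights, the filter on values, robust moderation, single spots, the groups in the fit, a replicate block and leaving out each array. For the lists set beside the genes, leaving out the misplaced arrays was chosen after seeing the data. Promoter motifs were not analysed here.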

Additional observations from a re-analysis of the deposited data

Results flagged for a closer look

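The median log2 ratio over the measured genes of the mitochondrial ribosome and import was 0.0768 in CS+T3 replicate 4, far from the other 4 CS+T3 birds, which lay between -0.0313 and -0.0021. Dixon's test singled it out among 16 sets of values examined, and chance alone flags about 1 in 20 such sets. In this bird the median over the ribosome genes was 0.11, that over the import genes -0.05 and that over all features -0.02, and 38 of the genes were measured.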

How the results depend on the processing

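Each result for the 39 genes was recomputed under 36 alternatives. The counts of genes past the test in T3 against VC, CS+T3 against VC, CS+T3 against T3 and the interaction were 0 under all of them. With the values as deposited the count was 0 in CS against VC and 1 in CS against T3, and the median of the interaction was 0.035. Quantile normalization gave a count of 1 in CS against VC and 1 in CS against T3, and medians of 0.0014 in T3 against VC, 0.029 in CS against T3 and 0.034 in the interaction. Equal spread of the arrays gave a count of 1 in CS against VC, and medians of -0.0011 in T3 against VC and 0.022 in the interaction. Without the 4 mostly misplaced arrays the count in CS against T3 was 1 and the median in CS+T3 against VC 0.011. Without all 6 the count in CS against T3 was 1, and medians were -0.0061 in T3 against VC and -0.0020 in the interaction. The replicate block, and using only the compared groups, each gave 1 gene in CS against T3. In CS+T3 against CS the count was 1 with array weights, 1 with at least 4 values per group, 1 with arrays centred on their medians (median 0.022) and 2 with each spot on its own, which gave a median of 0.017 in CS+T3 against VC. Array weights gave medians of 0.018 in CS+T3 against T3 and 0.0029 in the interaction. Apart from leaving out 1 array, alternatives gave counts of 0 to 3 in CS against VC and 1 to 4 in CS against T3.

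Leaving out 1 array at a time gave counts of 2 to 2 in CS against VC, 1 to 5 in CS against T3 and 0 to 2 in CS+T3 against CS. The medians then ran from -0.010 to 0.053 in CS against VC, from -0.054 to 0.0096 in T3 against VC, from 0.017 to 0.063 in CS+T3 against VC, from 0.043 to 0.085 in CS against T3, from -0.040 to 0.020 in CS+T3 against CS, from 0.029 to 0.077 in CS+T3 against T3 and from 0.036 to 0.12 in the interaction.

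Of 1572 values for 44 pairs of a named gene and a comparison, 1497 kept their direction and side of the threshold, 31 fell short of it, 21 newly passed and 23 turned direction, none of them in a called result. MRPL22 in CS+T3 against T3 turned to 0.067 as deposited, 0.036 without 4 arrays, 0.032 without 6, 0.0058 after quantile normalization, 0.027 with equal spread and 0.015 with array weights, and ran from -0.13 to 0.036 over single arrays left out. MRPS15 in T3 against VC turned to -0.044 without 6 arrays, -0.089 after quantile normalization, -0.085 with equal spread, -0.14 with array weights and -0.0086 with the replicate block, and ran from -0.10 to 0.23 over single arrays left out. MRPS18A turned to -0.026 after quantile normalization and -0.083 with equal spread in the interaction. In CS+T3 against CS it turned to 0.0082 without 4 arrays, and ran from -0.15 to 0.031 over single arrays left out. MRPL46 in CS+T3 against T3 turned to 0.037 as deposited. The cause was not tested in any of these cases. The replicate block changed the calls of MRPS18A (0.46, adjusted p = 0.0856) and MRPL22 (0.36, adjusted p = 0.0717) in CS against T3 and no other call of a named gene. For the genes of the other lists the 3 settings for the misplaced arrays were chosen after seeing the data. With the values as deposited 0 of 3 calls of cytosolic ribosomal proteins passed in CS against VC, 2 of 5 in CS against T3 and 0 of 1 in CS+T3 against CS, and of the calls of oxidative phosphorylation subunits 1 of 2, 2 of 7 and 0 of 6 passed.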

Other observations

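The genes with too few values for a test include further parts of the mitochondrial ribosome. MRPL12, whose bacterial counterpart forms the ribosomal stalk, ran from -0.48 to -0.01 in 4 CS birds, stood at -0.28 and 0.24 in 2 T3 birds, ran from -0.25 to 0.17 in 4 CS+T3 birds and stood at 0.12 and 0.10 in 2 VC birds. MRPS2 stood at -0.21, 0.04 and -0.42 in 3 T3 birds, at -0.14, -0.26 and -0.08 in 3 CS+T3 birds and at 0.08 and 0.14 in 2 VC birds, with no value in CS birds. MRPL27 stood at -0.35 and 0.003 in 2 CS birds and ran from -0.23 to 0.04 in 5 VC birds. No test was made on these values.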
